A study of Homo sapiens with 8 samples.

Results

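The comparison set A549 and LC2/ad against PC3 and PC9, 4 human cell lines that the labels call lung adenocarcinoma, over 754 microRNA assays read by TaqMan quantitative PCR. Each line gave 1 control sample and 1 sample exposed for 72 h to 5 ng/ml of TGF-β1, a cytokine that can turn epithelial cells mesenchymal, and each side thus held 4 samples from 2 lines. Every line stayed in RPMI medium with serum, no line was replicated within a condition, and the labels say that the lines were not authenticated by the authors. LC2/ad is known for a RET fusion and PC9 for an activating EGFR mutation, while PC3, labelled here as a lung line, is also the name of a prostate cancer line. The labels do not define the sides as conditions: they are pairs of lines, and a difference between them cannot be told apart from what happens to be shared by 2 lines.

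An assay entered when its threshold cycle (Ct, the cycle at which fluorescence crosses a set line, so that 1 cycle less stands for a doubling of template) was 35 or less in at least 1 sample, which 372 of the 754 did. Levels are on a log2 scale, as the mean Ct of the assays found in all 8 samples of a card minus the Ct of the assay. Values below 1 common detection limit per card, at -5.85 on card A and -5.21 on card B, were set to it. This left 54 of the 372 at the limit in all 8 samples and 318 with a level above it somewhere. The description keeps to assays on which both lines of a side agreed, which was taken as line means (the mean of the control and the TGF-β1 sample) no more than 1 log2 unit, or 2-fold, apart on each side. 148 of the 318 met that rule.

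MicroRNAs are short RNAs that guide Argonaute proteins to messenger RNAs, mostly by pairing through the seed, bases 2 to 8 from the 5′ end, and they lower the output of the messages they pair with. Each is cut from a hairpin, from which 1 strand (the guide) is usually loaded and the opposite, passenger strand, marked # in the assay names, mostly decays. Hairpins often lie close together on one transcript or within the intron of a host gene, and their levels are widely used to tell tissues and tumour types apart.

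Among the 148 agreeing assays, 30 had the sides apart, meaning that all 4 samples of a side lay above all 4 of the opposite side with side means at least 2-fold apart. 14 of these were higher in A549 and LC2/ad and 16 in PC3 and PC9. Of all 318 tested assays, 12.9% and 9.43% met the same rule in those directions. The split moved with the scaling, to 21 and 9 with U6 as normalizer, which raised the median difference of the same assays from -0.06 to 0.21, and to 14 and 27 with RNU44 and RNU48, which lowered it to -0.25. The 30 were 20.3% of the agreeing assays, against 22.3% of all 318 tested assays and 24.1% of the 170 that missed the agreement rule. Among assays above the limit in all 8 samples these shares were 21 of 69 (30.4%) for the agreeing assays and 28 of 93 (30.1%) for the others. Which assays meet both rules also moved with the scaling. 18 of the 30 still met them with U6, where miR-194, miR-197 and miR-126 missed agreement, 23 with RNU44 and RNU48, where miR-21 no longer had the sides apart, and 22 with the median, where miR-21 and miR-210 missed agreement. Of the 30, 29 could be given a current mature name and 27 had a human entry in the RefSeq table used (build GRCh38.p14). The 27 carry 27 different seeds, so no seed family is counted more than once among them.

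The mature sequences of 7 assays that were higher in A549 and LC2/ad are shown here with the seed in capitals, because they carry the largest differences in that direction or belong to a cluster described further on.
hsa-miR-194-5p (assay miR-194): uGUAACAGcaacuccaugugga
hsa-miR-455-5p (assay miR-455-5p): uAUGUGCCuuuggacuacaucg
hsa-miR-22-3p (assay miR-22): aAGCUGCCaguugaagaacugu
hsa-miR-210-3p (assay miR-210): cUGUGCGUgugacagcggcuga
hsa-miR-21-5p (assay miR-21): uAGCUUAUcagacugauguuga
hsa-miR-494-3p (assay miR-494): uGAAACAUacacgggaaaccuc
hsa-miR-29b-3p (assay miR-29b): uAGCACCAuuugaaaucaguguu

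The next 7 belong to assays that were higher in PC3 and PC9, again with the seed in capitals. miR-213 is an older name, listed in RefSeq as a synonym of the gene MIR181A1, and its assay reads the passenger strand of miR-181a.
hsa-miR-221-3p (assay miR-221): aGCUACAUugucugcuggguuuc
hsa-miR-222-5p (assay miR-222#): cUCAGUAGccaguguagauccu
hsa-miR-197-3p (assay miR-197): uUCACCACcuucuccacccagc
hsa-miR-181a-3p (assay miR-213): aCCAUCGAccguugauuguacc
hsa-miR-19b-1-5p (assay miR-19b-1#): aGUUUUGCagguuugcauccagc
hsa-miR-193a-5p (assay miR-193a-5p): uGGGUCUUugcgggcgagauga
hsa-miR-126-3p (assay miR-126): uCGUACCGugaguaauaaugcg

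A last set gives partners with which those above are compared, namely a cluster neighbour, a microRNA with the same seed, and both strands of 2 hairpins.
hsa-miR-192-5p (assay miR-192): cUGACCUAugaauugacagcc
hsa-miR-215-5p (assay miR-215): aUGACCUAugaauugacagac
hsa-miR-222-3p (assay miR-222): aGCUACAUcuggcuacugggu
hsa-miR-149-5p (assay miR-149): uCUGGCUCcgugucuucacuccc
hsa-miR-149-3p (assay miR-149#): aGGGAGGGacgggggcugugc
hsa-miR-30a-5p (assay miR-30a-5p): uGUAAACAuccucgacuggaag
hsa-miR-30a-3p (assay miR-30a-3p): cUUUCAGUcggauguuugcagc

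**Figure D1:**
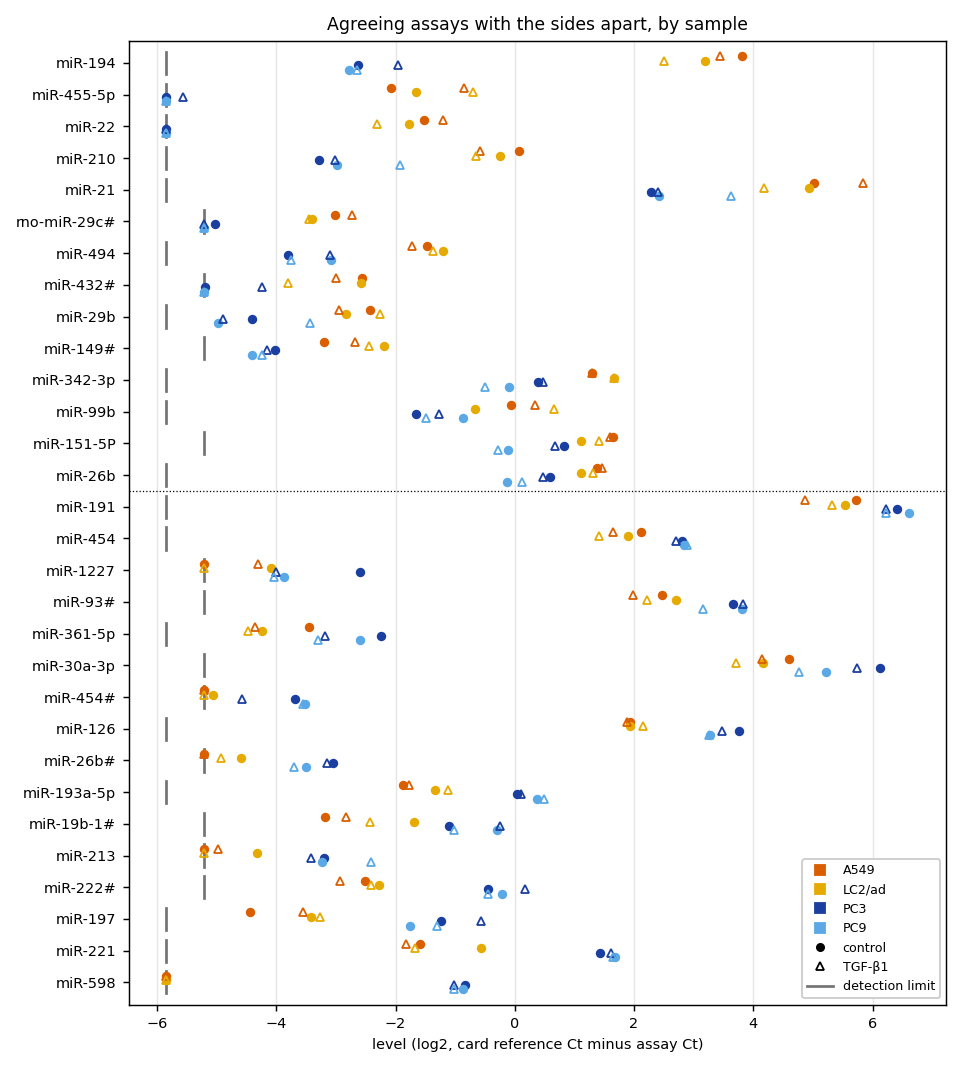
Log2 level (card reference Ct minus assay Ct) of the 30 agreeing assays with the sides apart, by sample; colours mark the lines, filled circles control and open triangles TGF-β1 samples, grey ticks the detection limit of the card. The 14 assays above the dotted line were higher in all 4 samples of A549 and LC2/ad, the 16 below it in all 4 of PC3 and PC9; for miR-22 and miR-598 the lower side sits on the limit.

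The largest difference among agreeing assays measured in all 8 samples was that of miR-194, a microRNA of intestinal, liver and kidney epithelium. Its level was 3.81 and 3.44 (A549), 3.19 and 2.51 (LC2/ad), -2.63 and -1.96 (PC3), and -2.78 and -2.65 (PC9) (control and TGF-β1 sample in each line). The lowest sample of A549 and LC2/ad, LC2/ad with TGF-β1, still lay far above the highest of PC3 and PC9, PC3 with TGF-β1. The side difference was 5.74 (log2, SE 0.47, 2 lines a side), which is 53.5-fold, and its adjusted p was 0.0485 in limma. The mature sequence is encoded by 2 hairpins, MIR194-1 at chr1:220118206-220118227, minus strand, and MIR194-2 at chr11:64891404-64891425, minus strand, inside the host transcript MIR194-2HG and 218 bases from the start of the MIR192 hairpin. miR-192, from that neighbouring hairpin, was also higher on this side, at 5.61 and 4.94 (A549), 4.47 and 4.09 (LC2/ad), -0.57 and -0.62 (PC3), and -1.82 and -2.00 (PC9). It missed the agreement rule, since the PC3 and PC9 line means differed by 1.31, and its side difference was 6.03 (SE 0.70, adjusted p = 0.101, limma). Its passenger strand miR-192# had a difference of 4.67.

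miR-215 is the counterpart of miR-192 in the cluster on chromosome 1, where its hairpin starts 304 bases from that of MIR194-1. It has the seed of miR-192 and the same base at 19 of 21 positions. It was at the detection limit in 7 of the 8 samples and reached -5.35 in the TGF-β1 sample of PC9 alone. So, of the 3 microRNAs of these clusters, the pair encoded on chromosome 11 was high in A549 and LC2/ad and the 1 encoded solely on chromosome 1 was not above the limit there. The assay for miR-194 reads the product of both of its hairpins together.

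miR-455-5p, inside the collagen gene COL27A1 (chr9:114209449-114209470, plus strand), came next in this direction. Its level was -2.09 and -0.85 (A549), -1.67 and -0.71 (LC2/ad), -5.85 and -5.56 (PC3), and -5.85 and -5.85 (PC9). The A549 and LC2/ad samples were all well above the limit, and in PC3 and PC9 only the TGF-β1 sample of PC3 was above it. The difference was 4.46 (SE 0.35), 21.9-fold with 3 of the 4 lower samples held at the limit, and the adjusted p was 0.0485 in limma, with a spread in PC3 and PC9 that the limit sets in part. The opposite strand, miR-455-3p, had 2.08 but missed the agreement rule in A549 and LC2/ad.

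miR-22, located in its own host transcript MIR22HG (chr17:1713914-1713935, minus strand), was above the limit in A549 and LC2/ad only. The A549 samples had -1.53 and -1.20, the LC2/ad samples -1.78 and -2.32, and all 4 samples of PC3 and PC9 were at the limit of -5.85. It was thus at least 17.8-fold higher in A549 and LC2/ad (4.15 on the log2 scale). With 1 side wholly at the limit, no error or test is given for it, and with each sample at its own limit it missed the agreement rule. The passenger strand miR-22# was above its limit in all samples but 1 and had a smaller difference of 1.28.

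miR-210, the microRNA best known for induction by hypoxia-inducible factor (chr11:568112-568133, minus strand, in MIR210HG), had levels of 0.07 and -0.58 (A549), -0.24 and -0.65 (LC2/ad), -3.29 and -3.02 (PC3), and -2.98 and -1.93 (PC9). The sides did not overlap, and the highest sample of the lower side was PC9 with TGF-β1. The difference was 2.46 (SE 0.43, 5.49-fold, adjusted p = 0.157, limma). miR-21, an abundant microRNA of many carcinomas that lies within the gene VMP1 (chr17:59841273-59841294, plus strand), was at 5.02 and 5.84 (A549), 4.93 and 4.19 (LC2/ad), 2.28 and 2.41 (PC3), and 2.43 and 3.63 (PC9). Again all A549 and LC2/ad samples were above all PC3 and PC9 samples, by the least margin between LC2/ad and PC9 with TGF-β1, and the difference was 2.31 (SE 0.53, adjusted p = 0.211, limma). Its passenger strand miR-21# went the same way, at 1.17.

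Members of 2 further groups were among the named assays of this direction. miR-494 and miR-432#, both from the imprinted microRNA region at 14q32 (chr14:101029681-101029702, plus strand, and chr14:100884544-100884564, plus strand), had differences of 1.99 (SE 0.35) and 1.98 (SE 0.41). miR-494 was at -1.47 and -1.73 (A549), -1.20 and -1.38 (LC2/ad), -3.80 and -3.09 (PC3), and -3.08 and -3.76 (PC9). The highest level in PC3 and PC9 was thus more than 1 log2 unit under the lowest in A549 and LC2/ad. For miR-432#, 2 of the 4 lower samples, both from PC9, were at the limit. The assay named after a rat sequence, rno-miR-29c#, had 2.02 with 3 of 4 PC3 and PC9 samples at the limit, and miR-29b, a regulator of collagen and other matrix messages that is encoded on chromosomes 1 and 7, had 1.81 (SE 0.37). The other 5 assays higher in A549 and LC2/ad were miR-149# (1.58), miR-342-3p (1.41), miR-99b (1.40), miR-151-5P (1.16) and miR-26b (1.05).

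In the opposite direction, miR-598 was above the limit in PC3 and PC9 only. The PC3 samples had -0.84 and -1.01 and the PC9 samples -0.87 and -1.02, a span of 0.18 over both lines and treatments, and all 4 A549 and LC2/ad samples were at the limit. It was at least 30.2-fold higher in PC3 and PC9 (-4.92 for A549 and LC2/ad minus PC3 and PC9). As for miR-22, the spread of the lower side is set by the limit, and no error is given.

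miR-221 (chrX:45746180-45746202, minus strand) targets the cell cycle inhibitor p27 and is encoded with miR-222 on the X chromosome, where the hairpins start 858 bases apart in the host transcript MIR222HG. Its level was -1.59 and -1.83 (A549), -0.57 and -1.68 (LC2/ad), 1.43 and 1.61 (PC3), and 1.69 and 1.64 (PC9). All 4 PC3 and PC9 samples lay within 0.26 of each other and above every A549 and LC2/ad sample. The difference was -3.01 (SE 0.40, 8.05-fold, adjusted p = 0.112, limma). miR-222 has the same seed, GCUACAU, and did not separate the sides, with levels of 6.62 and 6.41 (A549), 6.14 and 6.53 (LC2/ad), 6.00 and 5.95 (PC3), and 6.87 and 6.47 (PC9) and a difference of 0.10 (SE 0.42). That small difference is positive here but negative with RNU44 and RNU48 or the median as normalizer. The passenger strand miR-222# did separate them, at -2.52 and -2.94 (A549), -2.29 and -2.41 (LC2/ad), -0.45 and 0.17 (PC3), and -0.22 and -0.46 (PC9). Its difference was -2.30 (SE 0.37, adjusted p = 0.135, limma).

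miR-197, inside GNAI3 (chr1:109598940-109598961, plus strand), was at -4.45 and -3.55 (A549), -3.41 and -3.27 (LC2/ad), -1.24 and -0.57 (PC3), and -1.76 and -1.31 (PC9). It was so higher in every PC3 and PC9 sample (difference -2.45, SE 0.47, adjusted p = 0.176, limma). miR-193a-5p (chr17:31560016-31560037, plus strand) was at -1.87 and -1.77 (A549), -1.33 and -1.13 (LC2/ad), 0.03 and 0.11 (PC3), and 0.38 and 0.48 (PC9), with a difference of -1.77 (SE 0.42). Its opposite strand miR-193a-3p, which missed the agreement rule in A549 and LC2/ad, had -1.41. The remaining named assays all read passenger strands: miR-213 (-1.87), miR-19b-1# of the miR-17 cluster on chromosome 13 (-1.86) and miR-26b# (-1.63). For miR-213 and miR-26b#, 2 of the 4 A549 and LC2/ad samples were at the limit.

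The other 8 assays higher in PC3 and PC9 had differences from -1.01 to -1.46. miR-126, the microRNA of the endothelial gene EGFL7, was at 1.94 and 1.89 (A549), 1.93 and 2.16 (LC2/ad), 3.77 and 3.47 (PC3), and 3.27 and 3.26 (PC9), and miR-126# had -1.96. miR-191 and miR-425 are encoded 470 bases apart in DALRD3. Their differences were -1.01 and -0.67, of which only the first had the sides apart, while the passenger strands miR-191# and miR-425# had -2.20 and -3.95 and missed the agreement rule in PC3 and PC9. Both strands of the miR-454 hairpin, in SKA2, were among the 8 (-1.04 and -1.34), as were miR-93# (-1.27), miR-361-5p (-1.29), miR-30a-3p (-1.31) and miR-1227 (-1.07). Of the 27 assays with a RefSeq entry, 24 had a hairpin within the bounds of a gene on the same strand. The table gives gene bounds and not exons.

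The test asked how far these differences exceeded the spread between the lines of a side. With limma on the 4 line means, 2 of 318 assays (0.629%) were higher in A549 and LC2/ad at an adjusted p under 0.05, miR-194 and miR-455-5p, and 1 (0.314%), miR-598, was higher in PC3 and PC9. The call of miR-598 rests on 4 samples at the limit, and that of miR-455-5p on 3. With the test kept to assays detected in every sample neither could enter, and the calls were miR-194 and miR-192. All 3 are agreeing assays. The agreement rule and the error of the test use the same difference between lines, so nothing is read from that overlap. At an unadjusted p under 0.05 there were 26 (8.18%) and 25 (7.86%) of the 318, and 26 of the 30 agreeing assays with the sides apart were among them. The 30 were chosen for close lines within a side and distant sides, which the test also measures. That overlap is therefore not read as a result either. With all 8 samples, treatment as a term and the line as a random block, the calls were 11 and 13. Of these, 10 were among the 30, among them miR-22 and miR-598 with 1 side at the limit. That fit uses 1 correlation (0.70) for all assays and counts the 2 samples of a line as partly separate. Its calls are therefore given as an alternative and not as a result. The p-values on the line means measure the spread between these lines alone, and an exact permutation test of 2 lines against 2 could not go below 0.333. The 3 adjusted p-values stand close to the threshold: with U6 alone, with RNU44 and RNU48, with the median, or with a Ct limit of 32, no assay passed. Leaving out a line leaves 1 line on its side, and the opposite pair alone then gives the spread. Without PC9, which sets PC3 alone against A549 and LC2/ad, the counts were 3 and 12, and without A549, LC2/ad or PC3 they were 0 and 0.

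**Figure D2:**
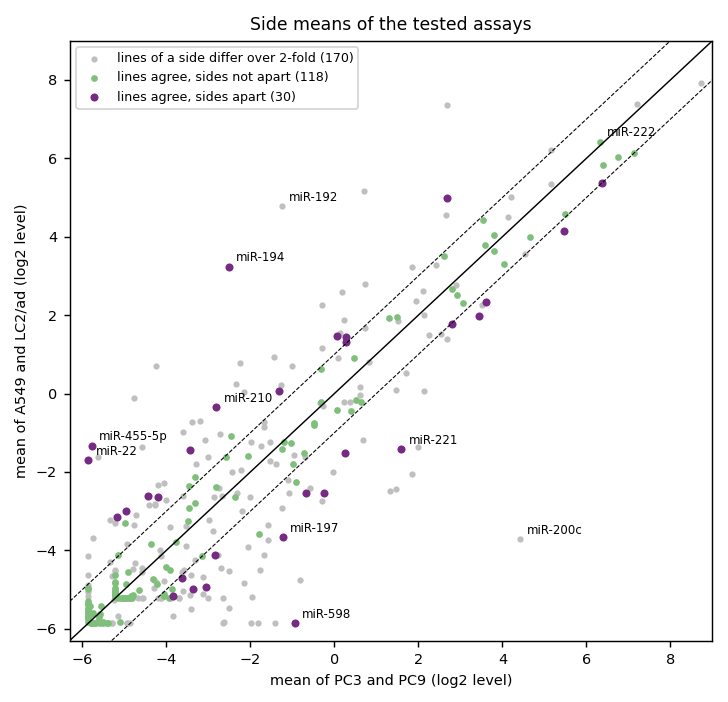
Mean log2 level of A549 and LC2/ad (vertical axis) against that of PC3 and PC9 (horizontal axis) for the 318 tested assays; the solid line marks equal levels and the dashed lines 2-fold differences. Agreeing assays with the sides apart (30) lie on both sides of the line at low and high levels, and 118 agreeing assays do not meet that rule.

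The other 118 agreeing assays did not have the sides apart by 2-fold. The side means of 78 of the 148 agreeing assays were within 0.5 of each other. Among those measured in all 8 samples, the smallest differences were those of miR-148b (-0.0016), miR-99b# (-0.05), miR-222 (0.10) and miR-103 (0.12), each with an SE between 0.36 and 0.45. Such differences have no settled sign: that of miR-148b turned with U6, and that of miR-103 with RNU44 and RNU48 and with the median. Of the 148, 69 were measured in all 8 samples, 20 were at the limit in all 4 A549 and LC2/ad samples and 28 in all 4 PC3 and PC9 samples. Of these one-sided assays, miR-22 and miR-598 alone had the sides apart. The normalized limit is that of the control sample of PC9, which had the highest reference Ct on each card, and it set between 0 and 45 values at Ct 35 or below per sample to the limit. On card A the Ct values carry more than 2 decimals in both A549 samples and the LC2/ad control alone. The part of this in the differences was not tested.

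Which assays agreed was decided mostly by PC3 and PC9. A549 and LC2/ad were within 2-fold of each other on 283 of the 318 assays, and PC3 and PC9 on 168. The median absolute difference was 0.32 between A549 and LC2/ad and 0.92 between PC3 and PC9, or 0.37 and 1.07 over the 162 assays measured in all 8 samples. Of the 170 assays that failed the rule, 135 failed it in PC3 and PC9 alone, 20 in A549 and LC2/ad alone and 15 on both sides. Among the widest gaps between PC3 and PC9 were miR-146a, a feedback inhibitor of NF-κB signalling, with line means of -2.87 in PC3 and 5.79 in PC9, and miR-10b, a microRNA of the HOX clusters, with 2.32 and -5.85. miR-199a-3p, a microRNA of mesenchymal cells, was at 2.23 in PC3 and at the limit in the other 3 lines. At the edge of the rule, miR-19b-1# and miR-30a-3p were just inside it, with largest within-side differences of 0.95 and 0.94, and 1 of the assays named miR-550 and miR-582-5p were just outside it, with 1.001 and 1.03.

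**Figure D3:**
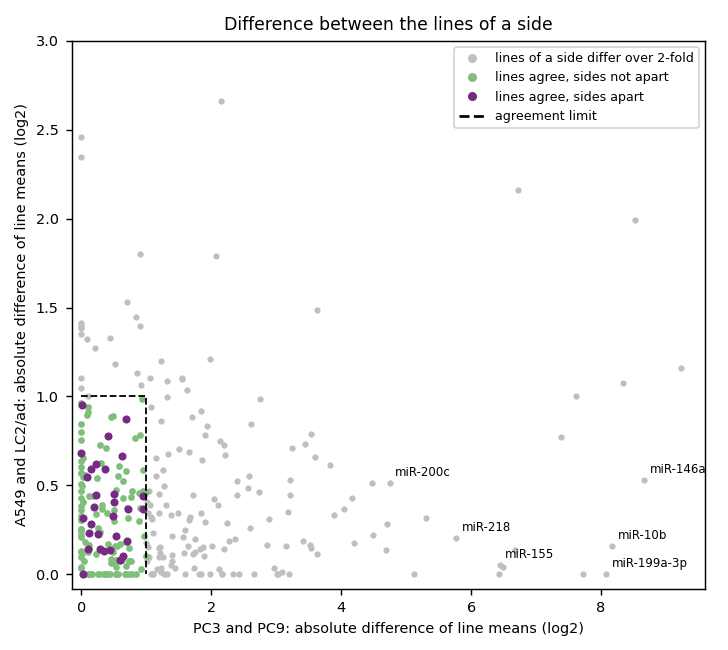
Absolute difference between the line means of A549 and LC2/ad (vertical axis) and of PC3 and PC9 (horizontal axis), log2 units, for the 318 tested assays; the dashed corner encloses the 148 that met the agreement rule. The points spread far further along the PC3 and PC9 axis, up to 9.23, than along the A549 and LC2/ad axis, up to 2.66.

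41 of the 170 assays that failed the rule also had the sides apart by 2-fold, 27 higher in A549 and LC2/ad and 14 in PC3 and PC9, and some of the largest side differences were there. Beside miR-192 and miR-192#, the widest gaps between the nearest line means of the sides were those of miR-489 and miR-34a, a p53 target, in 1 direction. Their side differences were 4.02 and 4.95. In the other they were those of miR-200c (side difference -8.13), miR-425# (-3.95), miR-9# (-3.80) and miR-141 (-4.45). For miR-141 all 4 A549 and LC2/ad samples were at the limit, so its difference is a lower bound in size. miR-34a was near 0.97 in A549 and 0.44 in LC2/ad, at the limit in PC3 and at -2.65 in PC9. miR-200c was at -3.30 and -3.61 (A549), -3.47 and -4.46 (LC2/ad), 2.25 and 1.85 (PC3), and 6.91 and 6.68 (PC9). PC3 and PC9 were both above A549 and LC2/ad, but PC9 stood more than 4 log2 units above PC3. None of these 8 passed an adjusted p of 0.05 in limma on the line means, where their lowest was that of miR-192. With the line as a random block all 8 passed, at adjusted p-values from 0.00188 (miR-192) to 0.0282 (miR-141) in limma. The value of miR-141 rests on a side at the limit. That fit counts the 2 samples of a line as partly separate, with 1 correlation for all assays. It thus gives the spread between lines less weight than the line means do, also for miR-200c, where PC3 and PC9 lay far apart. miR-192 also passed when the test was kept to assays detected in every sample (adjusted p = 0.0312, limma).

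The microRNA lists were read by their counts and medians, beside a median of -0.06 over all 318. The miR-200 family with miR-205, which holds back the ZEB repressors of the epithelial state, was lower in A549 and LC2/ad for 6 of 6 members, with a median of -2.95, but no member met the agreement rule and 2 of 6, miR-200c and miR-141, had the sides apart. 4 of the 6 were at the limit in both PC3 samples, so that their sign comes from PC9. miR-141 and miR-205 were at the limit in all 4 A549 and LC2/ad samples, so the limit fixes their negative sign. The count of 6 is therefore not read as a result. miR-200b was at the limit in PC3, below A549 and LC2/ad, and at 3.38 in PC9. The miR-17 cluster with its paralogs, which drives proliferation downstream of MYC, was lower for 12 of 12 tested members, with a median of -0.69 and a range from -0.99 to -0.12. 6 of these agreed, 0 had the sides apart by 2-fold and none passed the test, and with U6 as normalizer 2 of the 12 were higher. 1 of the 12, miR-18b, was at the limit in all 4 A549 and LC2/ad samples, so the limit fixes its sign. The miR-130, miR-301 and miR-454 list was lower for 5 of 5 (median -0.82), of which 2 were higher with U6.

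In the opposite direction, the 3 members of the miR-29 family were all higher in A549 and LC2/ad (median 1.38), with miR-29b and miR-29c agreeing and miR-29c at 1.38. The miR-99, miR-100 and miR-125 list was higher for 5 of 5 (median 0.96), led by miR-100 at 2.07, which missed the rule because PC3 was far below PC9. Of 46 microRNAs of 14q32 on the cards, 34 were at the limit in all samples and 12 were tested. 11 of these 12 were at the limit in all 4 PC3 and PC9 samples, so the limit fixes their positive sign and the count of 12 is not read as a result. At a Ct limit of 32 only 3 could be tested. Of the 11, 10 were highest in LC2/ad with TGF-β1, several in that sample alone. miR-494, the 1 member above the limit in all 8 samples, was also the only 1 of the list with the sides apart. The counts for the miR-29 and miR-99 lists stayed 3 of 3 and 5 of 5 with each of the other 3 normalizers. miR-134 and miR-487b, which the series title names, were above the common limit only in LC2/ad with TGF-β1, at -4.72 and -4.65, and miR-655 was at a Ct above 35 in all 8 samples. Lists without 1 direction were let-7 with miR-98 (4 higher, 4 lower, median 0.21) and the miR-15 and miR-16 family (4 and 3, median 0.02). The miR-183 cluster was lower for 3 of 3 (median -0.99), also with the other 3 normalizers. The miR-30 family was higher for 3 of 4 (median 1.07), or 2 of 4 with RNU44 and RNU48. The 3 tested members of miR-199 with miR-214 (median -3.86) had levels above the limit in PC3 alone. All 3 were at the limit in all 4 A549 and LC2/ad samples, so the limit fixes their negative sign and their count is not read as a result. No list member other than miR-194 passed the test on the line means.

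Epithelial markers, which define the labelled cell type, summed to ranges that did not overlap between the sides, and in PC3 miR-200c alone made the difference. The 7 epithelial markers (the miR-200 family, miR-205 and miR-203) were all above the limit somewhere, and their summed linear level, relative to the card reference, was 0.163 to 0.741 in the A549 and LC2/ad samples and 3.74 to 140.2 in those of PC3 and PC9. miR-200c was 96.3% to 97.7% of the sum in PC3. Without it the A549 and LC2/ad samples summed to 0.0733 to 0.659, the PC3 samples to 0.111 to 0.139, inside that range, and the PC9 samples to 20.3 to 22.3. 2 of the 7 were above the limit in all 4 PC3 and PC9 samples. miR-141 and miR-205 were at the limit in all 4 A549 and LC2/ad samples. Fibroblast and smooth muscle markers summed to between 0 and 0.151 against 0 and 8.69, with the high values in PC3. There miR-199a-3p and miR-214 were found, both of which were at the limit in A549, LC2/ad and PC9. miR-143 and miR-145 of the same list were at the limit in both PC3 samples, so the list as a whole was not raised in PC3. Blood markers reached at most 0.0627, with 4 of 6 including miR-451 at the limit in all samples, and striated muscle markers and miR-122 of liver were at the limit throughout. The nerve list, held up by miR-9, summed to between 0.427 and 0.623 against 1.69 and 9.02. miR-375, read as a neuroendocrine marker, was at 0.0400 to 0.127 and 0.0662 to 0.216. The part of such markers in the 30 separated assays was not tested. In a bulk sample, fewer cells with a microRNA and less of it per cell cannot be told apart.

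Both strands of 66 hairpins were tested, and 52 had differences of the same sign. Across these hairpins the strands' differences had Pearson's r = 0.63 and Spearman's rho = 0.62, as a description, since all points share the same 8 samples and the strands of a pair often sit on different cards. Of 17 hairpins with an agreeing, separated assay, 11 had both strands in the same direction and 7 had both at least 2-fold that way. The 7 were miR-21, miR-22, miR-126, miR-191, miR-193a, miR-454 and miR-455, of which only miR-21 and miR-454 met the agreement rule on both strands. The rule already puts 1 strand of each of the 17 at 2-fold, so the count of 7 is not read as a result. The other 6 of the 17 had opposite signs. miR-149, which lies in GPC1, was at -3.20 and -2.77 (A549), -1.93 and -1.83 (LC2/ad), 0.65 and 0.74 (PC3), and 2.47 and 2.01 (PC9), with a difference of -3.90, while its other strand miR-149# was at -3.21 and -2.68 (A549), -2.20 and -2.45 (LC2/ad), -4.03 and -4.16 (PC3), and -4.40 and -4.25 (PC9) with a difference of 1.58. miR-30a-3p was lower in A549 and LC2/ad (-1.31) and miR-30a-5p, a member of the miR-30 family read on the same card, higher (1.88). In each of these pairs 1 strand, miR-149 or miR-30a-5p, missed the agreement rule. These 2 hairpins kept opposite signs with each of the other 3 normalizers and both other limits, though miR-149# was only 0.10 at a Ct limit of 32. The miR-26b and miR-361 pairs kept them wherever both strands could be tested, and the miR-222 and miR-99b pairs did not with some normalizers or limits, 1 strand of each being close to 0.

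The rule that chose the 30 separated assays gives each the same sign in the control and in the TGF-β1 samples, so that is not a result. The difference was at least 2-fold for 27 in the control and 29 in the TGF-β1 samples, where the rule asks for 2-fold between side means over both. Taken alone, the 4 control samples gave 2 of 297 assays at an adjusted p under 0.05 (0.673%; miR-194 and miR-598, the latter with 1 side at the limit) and 52 (17.5%) unadjusted, and the 4 TGF-β1 samples gave 0 of 296 and 43 (14.5%) in limma. The response to TGF-β1 itself did not differ between the sides at an adjusted p under 0.05 for any of 318 assays (0%, lowest adjusted p 0.258, limma), and 32 (10.1%) had an unadjusted p under 0.05.

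3 of those 32 were among the 30, a share close to the 10.1% over all 318 assays, so they are not read as a trait of the 30. The level of miR-455-5p was higher with TGF-β1 than in the control by 1.24 in A549 and 0.96 in LC2/ad and by 0.29 in PC3. The PC3 control and both PC9 samples were at the limit, so the PC3 value is a lower bound, that of PC9 is not known, and no test is given. For miR-210 the A549 response was -0.65, that of LC2/ad -0.40, that of PC3 0.27 and that of PC9 1.06, so the lines of each side had the same sign and the sides opposite ones (difference -1.19, adjusted p = 0.467, limma). miR-194 had the same arrangement, with -0.37, -0.68, 0.67 and 0.14 in that order (difference -0.93, adjusted p = 0.474, limma). These were the only 2 of the 30 with it. With 1 sample per line and treatment, these responses have no replicate within a line.

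**Figure D4:**
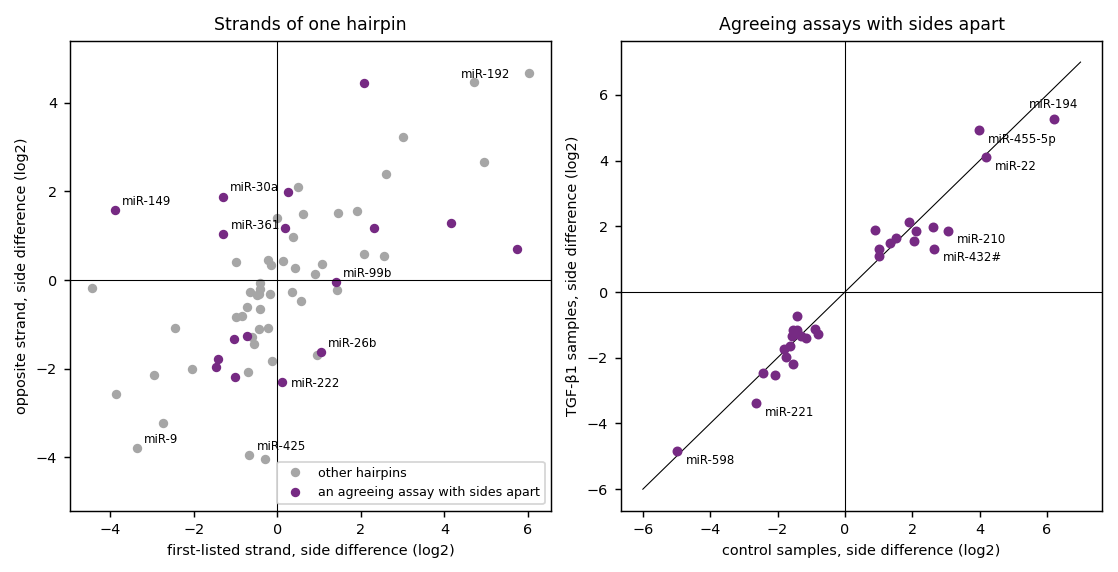
Left, side difference (log2) of one strand of a hairpin against that of the opposite strand for 66 hairpins; purple marks the 17 with an agreeing, separated assay, and the points at the upper left and lower right have opposite signs. Right, side difference of the 30 separated assays in the TGF-β1 samples against that in the control samples, with the line of equal differences. All 30 lie at the lower left or upper right, which the rule that chose them requires.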

How the data were processed

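The deposited table of raw threshold cycles (Ct, a value of another kind than counts or ratios) was used, in which the authors list an assay that did not amplify at 40, per the file headers and values. Reverse transcription and 40 cycles of TaqMan PCR are per the labels' protocols. How the instrument set its baseline and threshold is not stated in the labels. The deposited ratio and fold tables were not used, and 0 columns of samples were left unmapped. Lines and treatments come from the labels' characteristics. The source name field, which words every sample as exposed, was not used.

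Ct above 35 counted as not detected. For every card of a sample the reference was the mean Ct of assays found in all 8 samples (117 on card A, 51 on card B). The reference Ct ran from 27.4 to 29.1 on card A and 28.5 to 29.8 on card B, with PC9 highest, and 225 to 281 assays per sample were detected. The plant assay was at 40 throughout. Ct carries no read depth, and the number of samples limits the precision.

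The difference is A549 and LC2/ad minus PC3 and PC9, fitted on the 4 line means with limma 3.58.1 (R 4.3.3), 2 against 2, two-sided, with Benjamini-Hochberg adjustment over 318 assays. Averaging control and TGF-β1 holds treatment equal. The samples of a line are paired by the cell line in the labels, and a fit of all 8 with the line as a block was an alternative. The fit was tested on simulated independent line means with large differences and no detection limit, so that test does not cover values at the limit or small differences. The sides, members, lists and naming rule (the 8 largest separated agreeing assays per direction, the 4 widest gaps outside agreement, the 4 smallest differences, the edges of the rule, list examples and the title's microRNAs) were chosen with earlier results of these data known; separated assays beyond the 16 so named were added after their values were seen. Current names of assays were matched by hand to the RefSeq table of GRCh38.p14. Alternatives were 3 other normalizers, Ct 32, own limits per sample, assays found in all 8 samples, agreement limits of 0.5 and 2, and leaving out each line.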

Additional observations from a re-analysis of the deposited data

How the results depend on the processing

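The 30 separated agreeing assays kept their direction under each alternative with 1 choice of normalizer, limit or filter changed and without each line. At a Ct limit of 32, 25 of them were tested, and 22 were found in all 8 samples. Without a line, or with that filter, the rule that chose the assays fixes their direction, so nothing is read from it there. The rule of agreement with the sides apart was still met by fewer: 18 with U6, 23 with RNU44 and RNU48, 22 with the median, 18 at Ct 32 and 29 with own limits. All 22 found in all 8 samples and 26 to 29 without a line met it too, but neither count is a check of the rule. That filter leaves the levels as they were. A side of 1 line agrees by default, so that only the 2-fold size could fail. The calls were less stable. The assays called higher in A549 and LC2/ad (2) and in PC3 and PC9 (1) became 0 and 0 with U6, with RNU44 and RNU48, with the median and at Ct 32, 0 and 1 with own limits, and 2 and 0 among assays found in all 8 samples, where fewer were tested. The lowest adjusted p was then 0.124, 0.0519, 0.0572, 0.101, 0.0424 and 0.0273 (limma). With all 8 samples and the line as a random block they were 11 and 13, and with no block 34 and 26. Neither of these fits takes the line alone as the replicate. Leaving out a line, where the opposite pair alone gives the spread, gave 0 to 3 and 0 to 12. The 2 calls in control samples became 0 with U6, RNU44 and RNU48, the median, Ct 32 or any line left out (0 to 0), and the 0 calls in TGF-β1 samples became 2 among assays found in all 8 samples and 0 to 45 without a line, the 45 without PC9. The separated agreeing assays were 14 and 60 with agreement limits of 0.5 and 2. The cause of these changes was not tested, apart from the number of assays and samples that an alternative removes. At Ct 32 the bounds shrink by construction, to 1.56 for miR-455-5p and -2.03 for miR-598. Differences were small there for miR-432# (0.0087), miR-149# (0.10), miR-29b (0.28) and miR-361-5p (-0.27), so little is read from their kept direction.

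Signs turned for values near 0: with U6 to 0.44 for miR-148b, 0.30 for miR-99b# and 0.058 for miR-145, with RNU44 and RNU48 to -0.25 for miR-222, -0.23 for miR-103 and -0.11 for miR-181a, with the median to 0.36 for miR-99b#, -0.077 for miR-222 and -0.064 for miR-103, and at Ct 32 to 0.070 for miR-99b#. Leaving out each line in turn moved miR-148b from -0.36 to 0.35, miR-145 from -0.63 to 0.60, miR-181a from -0.043 to 0.52, miR-452 from -0.35 to 1.18, miR-103 from -0.087 to 0.32, miR-143 from -0.047 to 0.85, miR-222 from -0.25 to 0.45, let-7c from -3.86 to 0.18, miR-195 from -2.08 to 0.88, miR-10b from -6.81 to 1.36, miR-10a from -1.88 to 0.98, miR-301b from -2.30 to 0.45, miR-99b# from -0.42 to 0.32, miR-155 from -6.41 to 0.026, miR-146a from -5.71 to 2.95, miR-148a from -0.032 to 3.57 and miR-26a from -0.0017 to 1.01. Of these, miR-148b, miR-103, miR-143, miR-222, miR-99b# and miR-181a met the agreement rule.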

Other observations

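The cards hold 4 microRNA names with 2 detected assays each, which give a second reading of the same name. The assays named miR-550, both on card B, had side differences of 1.68 and 1.62. Those named miR-629 met the agreement rule on both cards but had -0.10 on card A and -1.81 on card B, and those named miR-34b had -0.07 and 0.24 and those named miR-378 had -0.92 and -0.12, all on card B. The files do not say which strand or sequence each assay of a name reads, and the reason for the gap between the miR-629 readings was not tested.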
